A study of Mus musculus with 8 samples.

Results

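The genes described here were the 8 mouse genes of the Runx family (*Runx1*, *Runx2* and *Runx3*) and the Tfap2 family (*Tfap2a*, *Tfap2b*, *Tfap2c*, *Tfap2d* and *Tfap2e*), out of 21951 protein-coding genes in the annotation. They were followed in ATAC-seq of E10.5 mouse hearts, an assay in which Tn5 transposase cuts DNA where chromatin is accessible. The hearts were WT or *Chd4-CMko*, with 4 samples of each genotype. *Chd4-CMko* hearts lack *Chd4*, the gene of a nucleosome-remodelling ATPase found in NuRD, in cardiomyocytes. For this line the methods name crosses of *Chd4* fl/fl females with males that carried *Tnnt2*-Cre and 1 floxed allele, so that other cells of the heart keep the gene. The controls were littermates, each of which would carry at least 1 floxed allele from such a cross, and the labels, which call them WT, do not give their alleles or Cre. Each sample held pooled hearts, 3 by the series text and 4 by the extract protocol, from which 40000 viable cells were taken. No treatment was applied in either genotype.

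The data were 2 peak lists, 1 per genotype, without a value per sample. The 12991 peaks deposited as enriched in *Chd4-CMko* are called gained and the 2745 deposited as enriched in WT are called lost. Every member interval was 151 bp wide. A peak was assigned to a gene when its nearest TSS of a protein-coding gene (GENCODE M21, mm10) was a TSS of that gene, or when it lay within 10 kb of the gene body. By this rule 24 of the 15736 listed peaks belonged to the 8 genes, of which 21 were gained and 3 were lost. All 24 met the first condition, and 7 of them (6 gained and 1 lost) met the second as well. A peak within 3 kb of any TSS of the gene was a promoter peak and any other peak was distal. The lists give no test between the genotypes, no spread between replicates and no read depth, and peaks in neither list have no value here. A score was compared only with other scores of its own list, because the scale is not stated and its steps differ between the lists. In tissue of mixed cell types, a peak that changes in each cell and a change in how many cells carry it cannot be told apart.

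RUNX proteins bind DNA through the Runt domain, with the partner CBFβ, and both activate and repress their targets. *Runx1* is required for definitive haematopoiesis, *Runx2* for bone formation, and *Runx3* acts in T lymphocytes and sensory neurons. AP-2 proteins, which the *Tfap2* genes encode, bind GC-rich palindromes as dimers. *Tfap2a* and *Tfap2b* act in neural crest, skin and kidney, and *Tfap2c* acts in trophoblast and germ cells. *Tfap2d* and *Tfap2e* are known mainly from the nervous system. None of the 8 is known chiefly as a gene of cardiomyocytes, although neural crest cells and blood cells are present in the heart at this stage.

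The targeted gene, *Chd4*, had 2 gained peaks and no lost peak, which do not check its deletion because accessibility does not report whether an exon is present. Its gained peaks were at chr6:125089870-125090020, with a score of 405.5, and at chr6:125096663-125096813, 94 bp from a TSS, with a score of 219.5. Of 14 cardiomyocyte markers, 9 had a gained peak and 1, *Ryr2*, had lost peaks, beside 37.4% and 10.8% of all protein-coding genes. These lists of differences do not give a marker's level, so the tissue label could not be checked with them.

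Gained peaks were assigned to 5 of the 8 genes (62.5%), beside 37.4% of all protein-coding genes. Lost peaks were assigned to 2 of the 8, *Runx1* and *Runx2*, beside 10.8% of all genes, and the same 2 genes had peaks of both kinds, beside 6.36%. All 3 *Runx* genes and 2 of the 5 *Tfap2* genes, *Tfap2a* and *Tfap2c*, had a gained peak. *Tfap2b*, *Tfap2d* and *Tfap2e* had neither kind. A gained promoter peak was found at *Runx3* and *Tfap2c* only among the 8, beside 12.4% of all genes. No member had a lost promoter peak, beside 1.24% of all genes. With 8 genes, these shares move by 12.5 percentage points for each gene, and they were not tested.

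**Figure D1:**
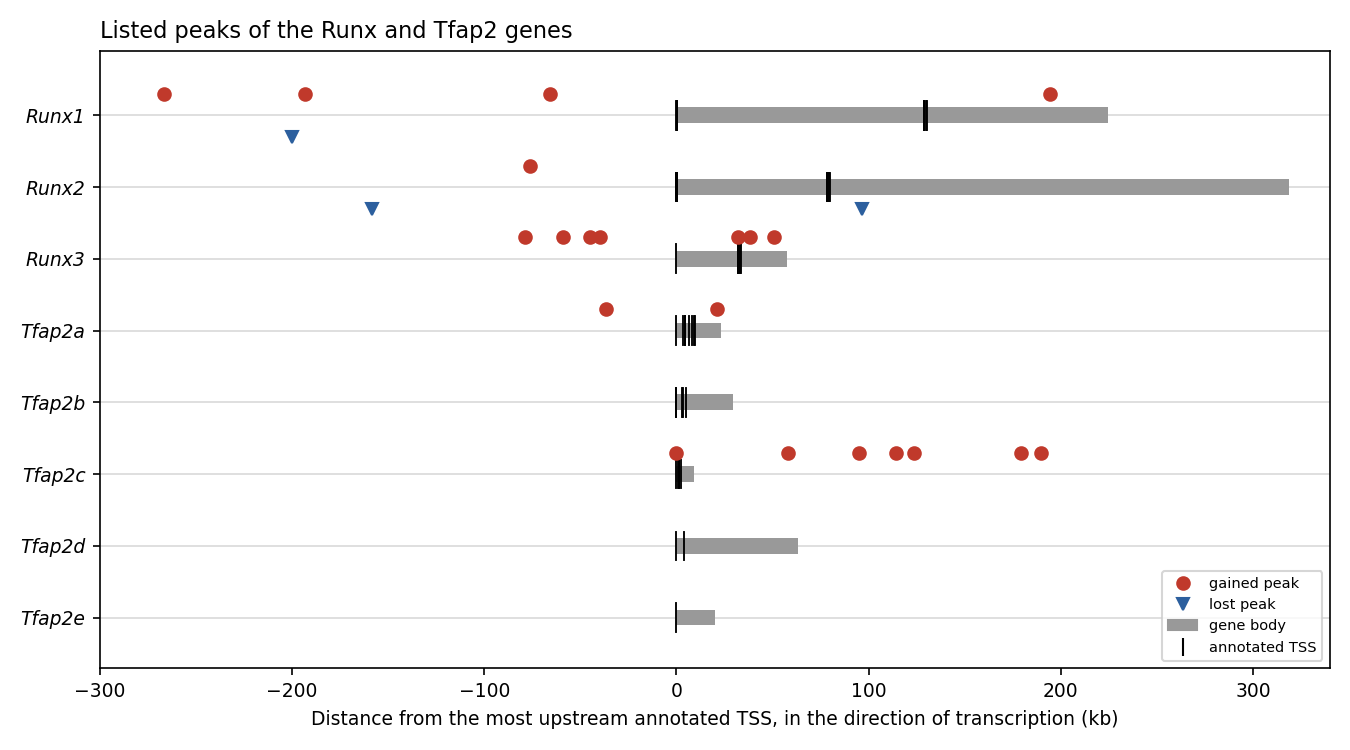
Position of each listed peak relative to its gene. The x axis is the distance in kb from the most upstream annotated TSS, in the direction of transcription, grey bars are gene bodies, black ticks are annotated TSSs, red circles are gained peaks and blue triangles are lost peaks. *Runx3* and *Tfap2c* hold 14 of the 21 gained peaks, and no peak is drawn for *Tfap2b*, *Tfap2d* or *Tfap2e*.

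Most of the gained peaks were assigned to 2 genes. *Runx3* and *Tfap2c* each had 7, a number reached by 191 protein-coding genes (0.87%), and each had 1 promoter peak and 6 distal peaks. These numbers depend on the assignment of distal peaks. Within 10 kb of the gene body, *Runx3* had 3 gained peaks, and *Tfap2c* had 1, as had *Runx1* and *Tfap2a*. When TSSs of noncoding genes competed under the main rule, *Runx3* had 3 and *Tfap2c* had 5. *Runx1* had 4 gained peaks by the main rule, which 904 genes (4.12%) had or exceeded. *Tfap2a* had 2, which 3574 genes (16.3%) had or exceeded, and *Runx2* had 1.

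**Figure D2:**
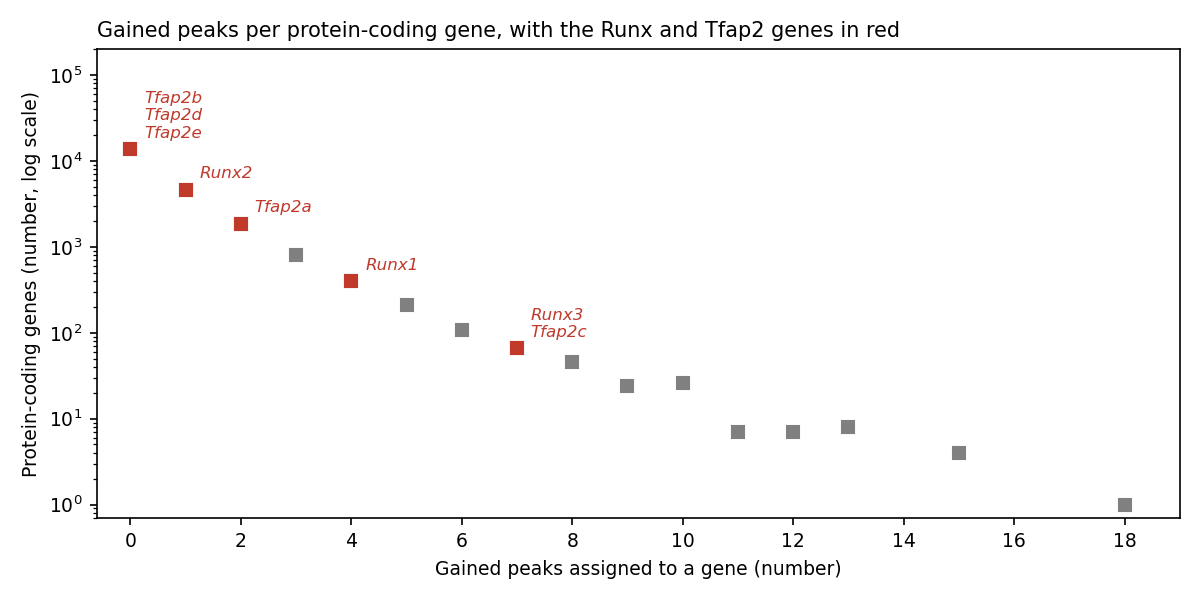
Number of protein-coding genes (y axis, log scale) with each number of assigned gained peaks (x axis). Each square is a number of peaks, and those that hold a Runx or Tfap2 gene are red. *Runx3* and *Tfap2c* lie at 7 peaks, in the part of the distribution that holds 0.87% of genes.

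*Runx3* (ENSMUSG00000070691.10) spans chr4:135120652-135177990 on the forward strand, 57.3 kb with 6 annotated TSSs spread over 33.8 kb. Its highest-scoring peak lay at the downstream promoter and not at the first. This peak, chr4:135152381-135152531, covered the TSS of the protein-coding transcript Runx3-202 at 135152496, and reached 36 bp into the 5′ UTR. Its near edge was 31.7 kb downstream of the first TSS (Runx3-201). Its score of 231 stood at the 94.1 percentile of the gained list (rank 771). Among the 874 gained peaks that covered a TSS of a protein-coding gene it stood at the 70.7 percentile, where the median score was 166.5. The interval had a GC content of 80.1% and 22 CpG dinucleotides, as many as 2.51% of gained peaks hold, where the median was 2. Within 3 kb of the first TSS no gained peak was listed.

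The other gained peaks of *Runx3* formed 1 group inside the gene and 1 upstream of it. In introns downstream of Runx3-202 lay chr4:135158821-135158971, with a score of 148.5 (84.4 percentile), and chr4:135171632-135171782, with a score of 102.5 (72.5 percentile). The upstream group held 4 intergenic peaks, all between *Syf2* and *Runx3*. The peak closest to the gene, chr4:135080818-135080968, lay 39.7 kb upstream and scored 112.5. The next, chr4:135075426-135075576, lay 45.1 kb upstream and scored 81.5. The peaks at chr4:135061337-135061487, 59.2 kb upstream, and chr4:135042032-135042182, 78.5 kb upstream, scored 38 and 48.5. The scores of the 7 peaks thus ran from 38 to 231, with a median of 102.5, and 5 of them were at or above the median of the gained list (62.5). The upstream peaks were still 111 to 150 kb from the next other protein-coding TSS, that of *Syf2*. The noncoding gene Gm16225 starts near the first *Runx3* TSS and is marginally closer to all 4. No lost peak was assigned to *Runx3*, and the nearest, chr4:135219760-135219910 with a score of 50.5, lay 41.8 kb from the gene and nearest to *Clic4*.

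The following *Runx3* sequences are its promoter peak, its highest-scoring distal peak and the only member peak with an AP-2 consensus match, and are shown for that reason. Capitals mark matches to the consensus strings defined with the motif counts, on either strand. All sequences are from the forward strand of GRCm38.p6 (mm10), and the promoter peak is shown only up to the TSS.
Runx3 promoter chr4:135152381-135152495: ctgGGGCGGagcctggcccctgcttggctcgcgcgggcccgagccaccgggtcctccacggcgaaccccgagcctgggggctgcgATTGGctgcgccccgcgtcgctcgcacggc
Runx3 intron chr4:135158821-135158971: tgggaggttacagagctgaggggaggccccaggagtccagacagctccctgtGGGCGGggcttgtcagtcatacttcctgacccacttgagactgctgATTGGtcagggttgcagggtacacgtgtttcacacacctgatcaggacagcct
Runx3 upstream chr4:135042032-135042182: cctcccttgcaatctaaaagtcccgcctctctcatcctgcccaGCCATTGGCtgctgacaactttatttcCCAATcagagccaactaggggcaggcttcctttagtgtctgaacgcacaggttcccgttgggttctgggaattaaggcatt
The promoter part held 1 KLF/SP match and 1 NFY match, and the intron peak held the same pair. In the upstream peak the AP-2 match overlapped an NFY match, and a further NFY match followed it.

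*Runx1* (ENSMUSG00000022952.17) spans chr16:92601466-92826149 on the reverse strand, 225 kb, with 7 TSSs in 2 clusters spread over 131 kb. Its listed peaks lay far from both clusters. The gained peak inside the gene, chr16:92631620-92631770, was intronic, 63.7 kb from the nearest TSS (Runx1-205), and scored 61.5 (49.4 percentile of the gained list). Upstream of the gene, chr16:92891846-92891996 lay 65.7 kb from Runx1-201 and scored 72 (57.7 percentile). The gained peak chr16:93092717-93092867 lay 267 kb upstream and scored 42 (27.7 percentile). The gained peak chr16:93019099-93019249 lay 193 kb upstream and scored 21.5, at the 0.416 percentile (rank 12938), close to the lowest score listed. So 1 of the 4 was at or above the list's median, and none reached its upper quartile.

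A lost peak lay beside the last of these. At chr16:93026197-93026347, 200 kb upstream of *Runx1*, it was separated from the gained peak by 6947 bp, and its score of 50.7 stood at the 76.1 percentile of the lost list (rank 657). It was the only lost peak of the members at or above its list's median of 36.8. Both intervals were intergenic, 521 and 528 kb from the next other protein-coding TSS (*Clic6*), and nearest to the noncoding gene Gm28003. Another gained interval, chr16:92590261-92590411 with a score of 28.5, lay 11.1 kb from the 3′ end of *Runx1*, just outside the rule, and was nearest to *Clic6*. The gained and the lost interval are shown because they are the closest pair of opposite direction among the members.
Runx1 upstream gained chr16:93019099-93019249: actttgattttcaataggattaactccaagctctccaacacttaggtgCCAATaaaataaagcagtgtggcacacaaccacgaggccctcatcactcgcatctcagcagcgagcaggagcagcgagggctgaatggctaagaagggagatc
Runx1 upstream lost chr16:93026197-93026347: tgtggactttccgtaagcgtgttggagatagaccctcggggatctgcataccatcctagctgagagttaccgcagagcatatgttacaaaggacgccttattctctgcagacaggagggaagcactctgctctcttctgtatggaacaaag
Their GC contents were similar, 49% and 49.7%. The gained interval held 1 NFY match, and the lost interval held none of the 6 strings.

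*Runx2* (ENSMUSG00000039153.16) spans chr17:44495987-44814797 on the reverse strand, 319 kb with 11 TSSs, and was the only member with more lost than gained peaks. The lost peak chr17:44718112-44718262 was in an intron of *Runx2*, 16.4 kb downstream of the nearest TSS, and scored 24.2 (18.1 percentile of the lost list). The lost peak chr17:44973099-44973249, 158 kb upstream, scored 34.6 (44.1 percentile). The gained peak chr17:44890686-44890836, 75.9 kb upstream, scored 31.5 (11.6 percentile of the gained list). Both upstream intervals were in introns of *Supt3*, the neighbouring gene, although *Runx2* has the closest protein-coding TSS. All 3 scores were below the median of their own list. The intronic lost interval is shown because it was the only lost member peak with the RUNX string, and the gained interval because annotated repeats cover 100% of it.
Runx2 intron lost chr17:44718112-44718262: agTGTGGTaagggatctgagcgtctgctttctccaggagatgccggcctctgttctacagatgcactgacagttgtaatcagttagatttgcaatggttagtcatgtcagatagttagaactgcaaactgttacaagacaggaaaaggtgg
Runx2 upstream gained chr17:44890686-44890836: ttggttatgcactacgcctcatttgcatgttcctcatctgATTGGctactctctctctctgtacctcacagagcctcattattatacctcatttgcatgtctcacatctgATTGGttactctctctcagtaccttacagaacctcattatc
The RUNX string starts at base 3 of the lost interval. The gained interval had the lowest GC content of the gained member peaks (42.4%) and held 2 NFY matches, and its longest repeated stretch was 14 bp.

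*Tfap2c* (ENSMUSG00000028640.11) spans chr2:172549593-172558622 on the forward strand, 9.03 kb with 6 TSSs within 2.52 kb. Its promoter peak had the highest score of the gained member peaks. At chr2:172549460-172549610 it covered the first TSS (Tfap2c-201, 172549593), with 18 bp in the 5′ UTR, and its score of 335 stood at the 98.4 percentile of the gained list (rank 204). Among gained peaks over a protein-coding TSS it stood at the 90.4 percentile (rank 85). Its GC content was 71.5%, with 15 CpG dinucleotides, as many as 6.98% of gained peaks hold.

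The 6 distal peaks of *Tfap2c* were all intergenic and all downstream of the gene, from 55.7 to 187 kb from its nearest TSS. In order of distance, chr2:172607856-172608006 scored 33 and chr2:172644745-172644895 scored 46. The peak chr2:172663909-172664059 scored 48, and chr2:172673189-172673339, 121 kb away, scored 121.5 (78.4 percentile). The farthest were chr2:172728634-172728784, with a score of 119 (77.7 percentile), and chr2:172739058-172739208, with a score of 65.5. The scores therefore did not fall with distance among these 6, and the 2 above 100 were at 121 and 177 kb. The peak at 177 kb held 13 CpG dinucleotides, as many as 8.58% of gained peaks hold. The next other protein-coding TSS was that of *Fam209* or, for the last pair, that of *Bmp7*, 201 kb or more from both. No lost peak was listed in a span of 6.49 Mb around *Tfap2c*, which held 79 protein-coding genes, *Tfap2c* among them. Of the 2688 autosomal gaps between lost peaks, 15 were as long, but a gene is likelier to lie in a long gap than in a short one.
Tfap2c downstream chr2:172673189-172673339: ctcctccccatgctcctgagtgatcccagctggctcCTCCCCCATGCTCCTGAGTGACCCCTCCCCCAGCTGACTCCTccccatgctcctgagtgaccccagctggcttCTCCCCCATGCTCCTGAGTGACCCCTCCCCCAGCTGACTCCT
The downstream interval is shown for its repeated structure: the capitals mark a stretch of 42 bp present in 2 exact copies, although the repeat annotation covers none of it. A repeated stretch as long occurred in 248 gained peaks (1.91%), where the median was 8 bp. How the authors treated reads that can be placed in more than 1 way is not stated.

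*Tfap2a* (ENSMUSG00000021359.16) spans chr13:40715302-40738376 on the reverse strand, 23.1 kb with 9 TSSs. It had 2 gained peaks, both outside its promoters. The peak chr13:40716956-40717106 lay wholly within the 3′ UTR in the last exon of 6 transcripts, 11.8 kb from the nearest TSS (Tfap2a-209), and scored 74 (59.1 percentile). This interval had a GC content of 75.5%, 17 CpG dinucleotides (as many in 5.57% of gained peaks) and 4 KLF/SP matches. The peak chr13:40774809-40774959, intergenic and 36.4 kb upstream, scored 25 (2.64 percentile), and annotated repeats cover 92.7% of it. It is shown because it was the only gained member peak with the RUNX string, which it holds at bases 103 and 121.
Tfap2a upstream chr13:40774809-40774959: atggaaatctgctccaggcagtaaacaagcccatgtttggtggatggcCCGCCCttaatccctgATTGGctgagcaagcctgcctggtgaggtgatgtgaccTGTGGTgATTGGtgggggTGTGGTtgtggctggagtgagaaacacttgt
The same interval held 2 NFY matches and 1 KLF/SP match. No lost peak lay within 1002 kb of the gene.

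The other 3 *Tfap2* genes had no listed peak. *Tfap2d* and *Tfap2b* are neighbours, at chr1:19103022-19166346 and chr1:19208914-19238576 on the forward strand, and lay in 1 span of 4.05 Mb without a gained peak. Of the 12768 autosomal gaps between gained peaks 35 were as long, and the median gap was 64.6 kb. The span held 13 protein-coding genes and ended at peaks nearest to *Ly96* (score 31.5) and *Mcm3* (score 35). The span without a lost peak around the same genes was 3.52 Mb, which 115 of 2688 gaps reached. *Tfap2e*, at chr4:126716006-126736240 on the reverse strand, lay 182 kb from the nearest gained peak, which scored 221 and was nearest to *Ago4*. Its span without a gained peak was 450 kb, with 7 protein-coding genes, a length that 1108 gaps reached. Its span without a lost peak was 7.55 Mb, which 7 gaps reached, and held 117 protein-coding genes, so it is not particular to *Tfap2e*. A gene is likelier to lie in a long gap than in a short one. The counts of gaps as long therefore do not give the share of genes in such gaps, which was not computed. A site in these spans may be accessible in both genotypes or in neither, since such sites are not in the lists.

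A gene far from its neighbours collects more peaks under the nearest-TSS rule, so the counts were also set against territory, the sequence for which a gene has the nearest protein-coding TSS. The median territory of a gene was 45.1 kb. Territories of the members ran from 37.9 kb (*Tfap2e*) to 654 kb (*Tfap2b*), and 7 of the 8 stood at the 84.7 percentile of all genes or higher. Per Mb of territory, *Runx3* had 37.3 gained peaks (exact Poisson 95% interval 15 to 76.8) and *Tfap2c* had 29.8 (12 to 61.4). The autosomes had 5.26 ± 0.951 gained peaks per Mb (SD, n = 19), at most 7.41, a spread between chromosomes and not between genes. Single genes spread more widely. Among 4673 other genes with a territory within 2 times that of *Runx3*, the median was 3.69 per Mb, the upper quartile 10 and the highest 62.4, and 63 genes (1.35%) were at least as dense as *Runx3*. Among 3976 such genes for *Tfap2c*, 88 (2.21%) were at least as dense. *Runx1* had 6.58 (1.79 to 16.8), *Tfap2a* 7.88 (0.954 to 28.5) and *Runx2* 1.71 (0.0432 to 9.51), intervals that hold the autosomal mean, and 20.2%, 27.7% and 54.5% of genes with like territories were at least as dense. The counts of 0 have exact Poisson upper bounds of 5.64 per Mb for *Tfap2b*, 7.78 for *Tfap2d* and 97.5 for *Tfap2e*, so these intervals hold the autosomal mean as well. The intervals and limits cover counting error only, and neighbouring peaks need not be independent. For lost peaks, *Runx1* had 1.64 per Mb of territory and *Runx2* 3.41, from 1 and 2 peaks. The autosomes had 1.1 ± 0.129 lost peaks per Mb (SD, n = 19), and this comparison was not tested. The densities hold for the main rule, under which most peaks of *Runx3* and *Tfap2c* are distal.

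**Figure D3:**
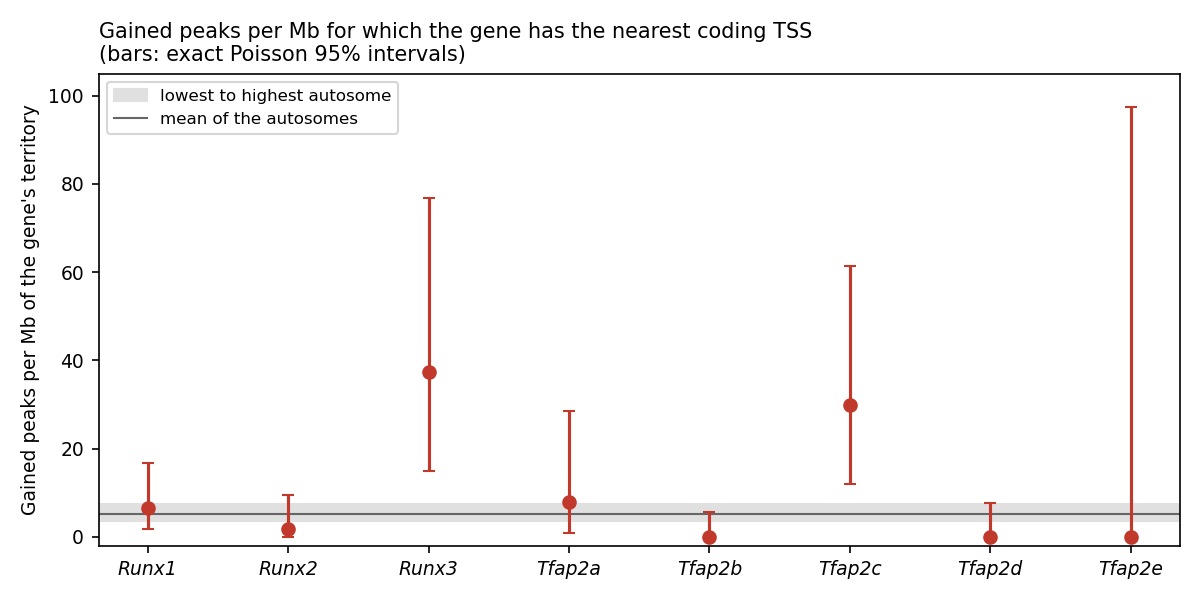
Gained peaks per Mb of the sequence for which each gene has the nearest protein-coding TSS. Points are the observed densities, bars are exact Poisson 95% intervals, the line is the mean of 19 autosomes (5.26) and the band runs from the lowest to the highest autosome (3.56 to 7.41). The intervals of *Runx3* and *Tfap2c* lie above the band, which shows chromosome averages and not the spread between genes, and those of the other 6 genes overlap it.

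By score, 11 of the 21 gained member peaks were at or above the median of their list. Of these, 5 belonged to *Runx3*, 4 to *Tfap2c* and 1 each to *Runx1* and *Tfap2a*. The upper quartile, at a score of 110, held 3 peaks of *Runx3* and 3 of *Tfap2c* and none of any other member. The median score of the gained member peaks was 65.5, beside 62.5 for the list, and they ranged from 21.5 to 335.

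**Figure D4:**
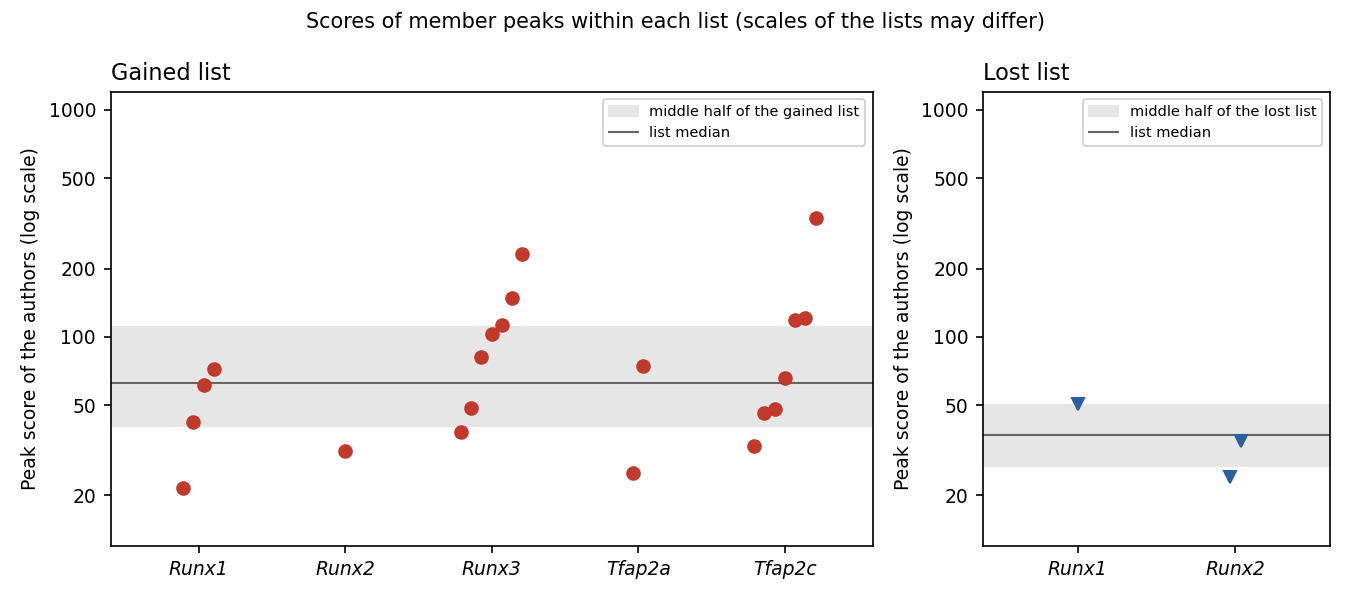
Scores of the member peaks (y axis, log scale) by gene, for the gained list on the left and the lost list on the right. Each point is 1 peak, the line is the median of the list (62.5 and 36.8) and the band runs from its lower to its upper quartile. Peaks of *Runx3* and *Tfap2c* alone lie above the band in the gained list.

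Most gained member peaks lay far from promoters. Of the 21 gained member peaks, 13 (61.9%, Wilson 95% interval 40.9 to 79.2) were more than 50 kb from the nearest protein-coding TSS, compared with 26.1% (25.3 to 26.9) of the gained list. Promoter peaks made up 9.52% (2.65 to 28.9) of them and 23.1% (22.3 to 23.8) of the list. By annotation 14 were intergenic, 4 intronic and 3 in a UTR. Long territories and peaks beyond 50 kb go together, and how far the distances follow from the territories was not tested. GC content was 58.9% ± 8.83 (SD, n = 21) for gained member peaks and 56.7% ± 8.55 for the list. It was 55.6% ± 8.8 for the 12 gained *Runx* peaks and 63.3% ± 7.13 for the 9 *Tfap2* peaks, and this difference was not tested. The 3 lost member peaks had 48.8% ± 3.4, beside 50.5% ± 5.85 for the lost list.

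The letters of 6 consensus strings were searched without mismatch on both strands. The RUNX and AP-2 strings are those of the factors that the members encode. The RUNX string, TGTGGT, was in 1 of 21 gained member peaks (4.76%), compared with 9.62% of the gained list, and in 0 of the 12 gained *Runx* peaks. The AP-2 string, GCCNNNGGC, was in 1 of 21 (4.76%), compared with 8.5%, and in 0 of the 9 *Tfap2* peaks. The NFY string, CCAAT, was the most frequent of the 6, in 8 of 21 (38.1%) compared with 29.3%, including 4 of 7 at *Runx3*. The KLF/SP string, GGGCGG, was in 7 (33.3%) compared with 22.5%. The GATA string, AGATAA, was in 4 (19%) compared with 11.1%, and the TEAD string, GGAATG, in 2 (9.52%) compared with 11.4%. Of the lost member peaks 1 of 3 held the RUNX string, compared with 13.3% of the lost list, and none held another string. A single peak moves a share of 21 by 4.76 percentage points, so none of these differences is read as a property of the members. A match describes letters and is not a binding site.

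Among genes whose products work with RUNX or AP-2 proteins, some had peaks of both kinds, some of 1 kind and some of neither. Of 12 RUNX partners, 10 had a gained peak, 6 a lost peak and 3 a lost promoter peak (*Tle1*, *Tle3* and *Hipk2*, of which *Tle1* and *Hipk2* were named after their values were seen), beside 37.4%, 10.8% and 1.24% of all protein-coding genes. *Tle3*, a Groucho corepressor, had 12 gained peaks, all distal and up to a score of 170, and 1 lost peak at chr9:61404326-61404476, 1.86 kb from a TSS, with a score of 85.1. *Cbfb*, which encodes CBFβ, had a gained peak over a TSS (chr8:105171416-105171566, score 166.5) and 2 distal lost peaks with scores of 35 and 32.2. *Ep300*, the gene of an acetyltransferase coactivator, had 3 gained peaks and no lost peak, and *Yap1*, a coactivator of the Hippo pathway, had 2 gained and 1 lost. Of 6 TFAP2 partners, 5 had a gained peak and 2 a lost peak. *Cited2*, a coactivator of AP-2 in heart development, had 13 gained peaks, all distal, the farthest 1416 kb from its TSS. Their highest score was 61.5, below the gained list's median of 62.5. It also had 2 lost peaks, with scores of 87.9 and 24.9, beside a median of 36.8 for the lost list. *Kctd15*, an inhibitor of AP-2, had 4 gained peaks, among them 1 over a TSS with a score of 209 and 1 at 18.1 kb with a score of 274.5. *Kctd1*, a further inhibitor, had 3 gained peaks, and *Cited4* had 2 gained and 1 lost.

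Genes known as targets of RUNX proteins were counted in the same way. Of 11 haematopoietic targets of RUNX1, 5 had a gained peak and none a lost peak. *Csf2* and *Spi1*, which encode a myeloid growth factor and the factor PU.1, had 2 gained peaks each, both of *Spi1* at promoters, while *Gfi1b* and *Csf1r* had 1 each. Of 8 skeletal targets of RUNX2, none had a gained peak, and *Ibsp*, a bone matrix gene, had 1 lost peak. The partner and target lists were written from general knowledge, and their counts are set beside the same 37.4% and 10.8% of all genes. Territory was not taken into account for these lists, although a gene far from its neighbours collects more peaks under the rule. A gained promoter peak was listed for 3 of the RUNX partners, 1 of the TFAP2 partners, 3 of the haematopoietic targets and 0 of the skeletal targets, beside 12.4% of all genes.

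Likeness between genes was described by their counts of peaks. *Runx3* and *Tfap2c* had the same 4 counts (1 gained promoter, 6 gained distal, 0 lost promoter and 0 lost distal peaks), which 11 other genes shared with each. Those whose highest gained score was closest to that of *Runx3* were *Chst1* (217), *Grin2c* (207.5) and *Tspan9* (273). For *Tfap2c* they were *Raet1e* (341.5), *Arhgef37* (361.5) and *Retreg1* (302).

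The assignment of distal peaks rests on the nearest protein-coding TSS and not on contact or expression. When only peaks within 10 kb of a gene body were counted, 6 gained peaks and 1 lost peak remained, and when TSSs of noncoding genes competed, 10 gained peaks and 1 lost peak remained. The gained promoter peaks of *Runx3* and *Tfap2c* were present under both.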

How the data were processed

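ATAC-seq libraries came from pooled E10.5 hearts, WT or *Chd4-CMko* (n = 4 samples per genotype). Per the labels and methods, the authors used BWA-MEM for alignment to mm10 and HOMER 4.10.3 for peak calling, applied a fold-change limit and annotated peaks with ChIPseeker 1.20.0. How the 4 samples were combined and how duplicates, reads with several placements and the Tn5 offset were treated is not stated. Each can change which peaks are listed. The deposited value is a peak score from the authors, without a stated scale. Depth per sample was not in the files used here.

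Peaks were assigned with Python 3.11.15 (pysam 0.24.0, numpy 2.4.6, scipy 1.17.1, matplotlib 3.10.9) against all TSSs of protein-coding genes in GENCODE M21, on GRCm38.p6, which is mm10. Distances ran from the edge of the interval, and coordinates are 1-based. The assignment was tested on simulated data. Shares have Wilson and densities exact Poisson 95% intervals. No test between genotypes was possible. All 8 genes and all their peaks are named. In each gene list up to 4 genes with the most peaks were eligible to be named, and every gene with a lost peak where 4 or fewer had one. The members and the 9 lists (RUNX partners, TFAP2 partners, RUNX1 haematopoietic targets, RUNX2 skeletal targets, neural crest, blood and endothelial and cardiomyocyte markers, cardiac developmental transcription factors, AP-1 and C/EBP genes) were chosen with earlier results of these data known. Motif strings, territories, spans and repeated stretches were chosen after the data were seen. The sequence of 1 promoter peak is not reported here.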

Additional observations from a re-analysis of the deposited data

How the results depend on the processing

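The counts 5 (genes with a gained peak), 2 (with a lost peak), 21 (gained peaks), 3 (lost peaks), 2 (gained promoter peaks) and 3 (member peaks with a RUNX or AP-2 string) were recomputed under each alternative that bears on them, and 34 values stayed within 1.5 times of them while 14 moved. With only scores at or above the median of each list, 1 gene had a lost peak, and 11 gained and 1 lost peak remained. At the upper quartile, 2 genes had a gained and 1 a lost peak, with 6 gained and 1 lost peak. With the 10 kb window alone, 1 gene had a lost peak, and 6 gained and 1 lost peak remained. With TSSs of all annotated genes, 1 gene had a lost peak, and 10 gained and 1 lost peak remained, since a noncoding gene lies nearer to each of the others. Gained promoter peaks numbered 3 within 10 kb of a TSS. Allowing 1 mismatch, a RUNX or AP-2 string was found in 24 of the 24 member peaks, compared with 3 without mismatch, so the mismatched search does not discriminate. No paired analysis was possible because the lists hold no value per sample, and for the same reason no sample could be left out. The methods state a target depth but the lists give no read counts, so an unlisted site may be accessible but below the limits.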

Other observations

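Marker lists of other cell types of the heart also held listed peaks. Of 16 neural crest markers, 12 had a gained peak and 5 a gained promoter peak, beside 37.4% and 12.4% of all protein-coding genes. *Msx2*, a homeobox gene, had 10 gained peaks, and *Pax3* and *Hand2* had 4 each. Lost peaks were listed for 4 of the 16: *Ets1* had 2, and *Pax7*, *Twist1* and *Foxd3* had 1 each. Of 16 blood and endothelial markers, 10 had a gained peak and 2 a gained promoter peak, with 5 each at *Kdr* and *Nfatc1*, genes of a VEGF receptor and of an endocardial factor, and 3 each at *Lmo2* and *Pecam1*. *Kdr*, *Erg*, *Ptprc* and *Emcn* had 1 lost peak each.

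Of 14 cardiomyocyte markers, 9 had a gained peak and 5 a gained promoter peak, beside the same shares. *Tnni3* and *Actn2*, genes of the sarcomere, had 3 gained peaks each, and *Ryr2*, the gene of the calcium release channel, had 1 gained and 3 lost peaks. Of 23 cardiac developmental transcription factors, 20 had a gained peak, 2 a gained promoter peak and 9 a lost peak. *Tbx3* had 8 gained peaks, *Tbx5* had 6, *Mef2c* had 4 gained and 2 lost, and *Gata6* had 4 gained and 1 lost. *Zfpm2*, a GATA cofactor named after its values were seen, had 5 lost peaks and no gained peak. Of 12 AP-1 and C/EBP genes, 10 had a gained peak and 2 a gained promoter peak, with 3 at *Fosl2* and 2 each at *Junb* and *Jun*, and *Cebpd* had the only lost peak. Over all protein-coding genes, 37.4% had a gained peak, 12.4% a gained promoter peak and 10.8% a lost peak. Territory was not taken into account for any of these lists. *Hand2*, *Nkx2-5* and *Cebpa* are each in 2 of the lists.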
